A study of Homo sapiens with 6 samples.

Results

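Sterol regulatory element-binding proteins (SREBPs) are the transcription factors that switch on the genes of cholesterol and fatty acid synthesis. The genes described here are 33 of them and of their regulators, chosen by name with earlier results of these data known. They were found as 33 rows among the 28847 genes of the deposited table. They comprise 7 enzymes of the early mevalonate steps, 11 of the late sterol steps, 9 enzymes of fatty acid synthesis and modification, and 6 regulators and carriers. Polyadenylated RNA was sequenced from 6 libraries of cells labelled as THP-1, a line that came from a human monocytic leukaemia. The control group is 3 libraries labelled as THP-1 alone, and the other group is 3 libraries labelled as THP-1 with RBP4, the plasma carrier protein of retinol, given as recombinant human protein. The series presents the cells as unpolarized (M0) macrophages and names no dose or time. The labels do not say whether the 3 libraries of a group came from separate cultures, so p-values measure only the spread between these libraries.

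Depth lay between 15202000 and 16420517 reads per library. Of 12 monocyte and macrophage markers, 4 (CD33, CTSS, FCGR2A and SPI1) reached 10 CPM (reads scaled to an equal library total) in all 6 libraries and 6 stayed under 1 CPM in all of them, CD14, CD68 and CSF1R included. All 12 erythroid markers, GATA1 and RHAG among them, reached 10 CPM in every library, which goes against the label of a monocytic line. The summed erythroid markers ranged from 2116 to 2134 CPM in the control and from 1811 to 1857 CPM in the RBP4 libraries, and the summed monocyte and macrophage markers from 226 to 232 and from 232 to 244 CPM. The part of these shifts in the results was not tested. In bulk RNA, fewer cells of a type and less RNA per cell cannot be told apart.

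SREBPs are made as precursors held in the membrane of the endoplasmic reticulum. SCAP escorts them to the Golgi apparatus for cleavage when sterols are scarce, and the INSIG proteins hold SCAP back when sterols are plentiful. The released part enters the nucleus and binds sterol regulatory elements, usually beside sites for NF-Y, which recognises the CCAAT box, and for Sp1, which recognises GC boxes. The form encoded by SREBF2 mainly drives cholesterol synthesis, and the main form encoded by SREBF1 mainly drives fatty acid synthesis.

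The promoter stretches of 5 genes are shown as examples: INSIG1 and MSMO1, which fell furthest, HMGCS1, an early enzyme that fell, SREBF2, a regulator, and TM7SF2, which rose. Each runs 5′ to 3′ on the strand of the gene from 250 bases before a RefSeq start (GRCh38.p14) to the last base before the gene as listed in the table. Capitals mark the CCAAT box on either strand (CCAAT or ATTGG) and, in SREBF2, also the core of a sterol regulatory element (TCACNCCAC, found there as TCACCCCAC). MSMO1 and HMGCS1 have a further CCAAT box past the end of the stretch shown, at -34 and -100 from the start. They lie at chr7:155297628-155297775 (+, INSIG1), chr4:165327419-165327622 (+, MSMO1), chr5:43313513-43313662 (-, HMGCS1), chr22:41832855-41833078 (+, SREBF2) and chr11:65111622-65111844 (+, TM7SF2).
INSIG1: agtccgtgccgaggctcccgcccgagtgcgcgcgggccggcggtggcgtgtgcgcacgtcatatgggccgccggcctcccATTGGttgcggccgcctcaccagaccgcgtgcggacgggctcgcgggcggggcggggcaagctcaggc
MSMO1: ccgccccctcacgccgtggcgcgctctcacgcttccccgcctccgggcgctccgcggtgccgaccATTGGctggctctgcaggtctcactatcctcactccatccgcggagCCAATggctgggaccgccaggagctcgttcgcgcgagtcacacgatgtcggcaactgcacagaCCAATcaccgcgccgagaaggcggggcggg
HMGCS1: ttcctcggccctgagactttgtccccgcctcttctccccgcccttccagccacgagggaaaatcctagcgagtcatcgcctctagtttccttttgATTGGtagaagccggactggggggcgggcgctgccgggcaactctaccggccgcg
SREBF2: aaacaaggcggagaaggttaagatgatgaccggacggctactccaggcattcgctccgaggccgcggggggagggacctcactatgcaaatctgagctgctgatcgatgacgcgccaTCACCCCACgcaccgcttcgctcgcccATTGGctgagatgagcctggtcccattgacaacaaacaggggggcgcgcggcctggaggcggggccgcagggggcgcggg
TM7SF2: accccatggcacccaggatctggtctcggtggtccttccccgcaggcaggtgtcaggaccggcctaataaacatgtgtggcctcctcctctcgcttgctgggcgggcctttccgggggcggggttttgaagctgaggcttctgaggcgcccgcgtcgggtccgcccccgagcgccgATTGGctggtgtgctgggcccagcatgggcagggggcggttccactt

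RefSeq windows of 250 bases before to 50 after a start were at hand for 29 of the 33 genes, 42 windows in all. A CCAAT box on either strand was present in 25 of the 42 windows (59.5%), against 34.6% of 35116 windows of all genes and 34.8% of the 14701 windows of genes tested here. At least 2 of them were present in 16 of the 42 windows, against 10.8% of all windows. A GC box (GGGCGG, either strand) was present in 37 windows (88.1%), against 45.0% of all and 66.0% of tested windows. Neither of these motifs contains the other, although adjacent matches can share bases, as the CCAAT boxes of IDI1 at -132 and -129 did. The sterol element core TCACNCCAC, on either strand, was present in 1 window, that of SREBF2, against 1.13% of all and 1.04% of tested windows. The E-box CACGTG was present in 5 (11.9%), against 7.26% of all and 9.46% of tested windows. By gene, 21 of the 29 (72.4%) had a CCAAT box in a window, against 39.7% of all genes. The median log2 fold change was -0.36 in the 21 genes with the box and -0.19 in those without it. For the GC box it was -0.30 in the 28 genes with it and -0.27 in NSDHL, the only gene without it. For the E-box it was -0.080 in the 4 genes with it and -0.34 in the others. The GC box and E-box splits are too uneven to compare, and no split was tested. TM7SF2 and SC5D, the genes that rose, both have a CCAAT box. A match describes these letters and is not a shown binding site. Only exact letters within these windows were sought, so a missing match does not show that a gene lacks a sterol regulatory element.

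Most of the genes were lower in the RBP4 libraries. In limma's moderated test over all 15676 genes that passed a filter (10 or more normalized reads in 3 or more libraries), with Benjamini-Hochberg adjustment at 0.05, 26 of the 33 fell, 2 rose and 5 did not pass. Among all genes tested 50.6% differed, 26.1% fell and 24.5% rose. Among the other 9159 protein-coding genes whose mean signal lay within the range of the 33, 36.1% fell and 24% rose. The median log2 fold change was -0.27 over the 33 genes and -0.0021 over all genes tested. All 33 were well above the filter, with a lowest value of 92.1 normalized reads in any library. A fall of at least 1.5-fold was found for 10 of the 33, against 3.49% of the genes tested, and a rise of at least 1.5-fold for 1, against 10%. Of the 9159 protein-coding genes of like signal, 124 fell and 323 rose by at least 1.5-fold. The single large rise is therefore no result about the 33 genes. The groups did not overlap for 27 genes, of which 25 had every RBP4 library lower (28.9% of genes tested) and 2 every RBP4 library higher (27.3%). In the authors' deposited table, 23 of the 33 were lowered and 1 raised at an adjusted p under 0.05. Of all its genes with a p-value, many of them barely expressed, 11.1% were lowered and 9.48% raised. Like the 33 in signal are the 9159 protein-coding genes, of which the authors' values called 2721 lowered and 1647 raised. Among the 15676 genes tested here they called 3178 lowered and 2658 raised.

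With the libraries scaled to equal total reads, 21 of the 33 fell and 2 rose, where 2990 of 15632 genes tested fell (19.1%) and 4819 rose. That scaling shifted all genes by a median of 0.068 on the log2 scale and the raised share of all calls from 48.4% to 61.7%. The 5 genes that no longer passed were MVK, MVD, SQLE, HSD17B7 and EBP, all with small changes.

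**Figure D1:**
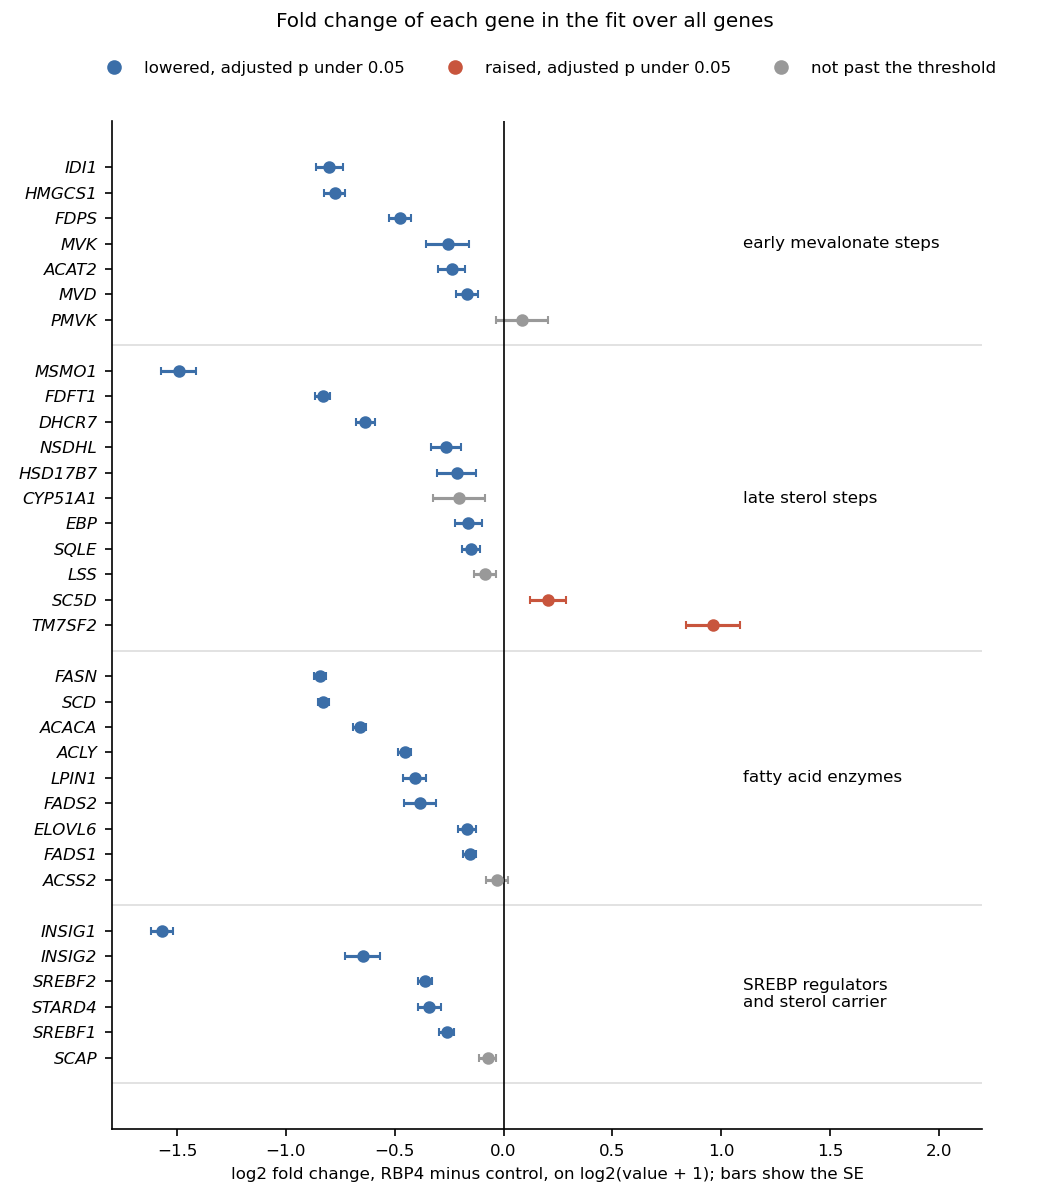
Log2 fold change (RBP4 minus control, on log2(value + 1)) of each of the 33 genes with its standard error, by sub-group, from the fit over all genes. INSIG1 (-1.57) and MSMO1 (-1.49) stand furthest to the left and TM7SF2 (0.96) furthest to the right.

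The early mevalonate enzymes turn acetyl-CoA into farnesyl pyrophosphate. Of the 7, 6 fell, none rose and PMVK did not pass; their log2 fold changes had a median of -0.26. HMGCS1, the synthase that makes HMG-CoA, had 1548, 1413 and 1562 normalized reads in control libraries 1, 2 and 3 and 863, 874 and 899 in RBP4 libraries 1, 2 and 3. Every RBP4 library was below every control library, a 1.72-fold fall (log2 fold change -0.78, SE 0.047, adjusted p = 5.2e-23 in limma). IDI1, which isomerizes isopentenyl pyrophosphate, had 849.7, 809 and 904 normalized reads in the control and 516, 463 and 491 in the RBP4 libraries. It fell 1.74-fold with no overlap between the groups (log2 fold change -0.80, SE 0.060, limma adjusted p = 1.2e-18).

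FDPS, which joins the isoprene units to farnesyl pyrophosphate, fell 1.39-fold, from 1044 ± 22.8 normalized reads to 751 ± 12.9 (mean ± SD over 3 libraries, as in all such pairs). ACAT2, the cytosolic thiolase of the first step, fell 1.18-fold, MVK, mevalonate kinase, 1.20-fold and MVD, the decarboxylase, 1.12-fold. PMVK, phosphomevalonate kinase, stood at 154 ± 25.0 and 162 ± 6.84 normalized reads (limma adjusted p = 0.577). The MVK call was also lost with DESeq2 (adjusted p = 0.0910) and without control library 3 (0.128), RBP4 library 1 (0.0595) or RBP4 library 3 (0.112), and its alternatives ranged from 0.0206 to 0.128. The library kit does not mark the strand, and 9.23% of the exon bases of ACAT2 lie in exons of TCP1 on the other strand, a gene at 8217 and 6520 normalized reads, so the ACAT2 value is uncertain. FDPS shares 18.6% of its exon bases with RUSC1-AS1 (188 and 141 normalized reads), so reads of that gene may be counted to it.

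**Figure D2:**
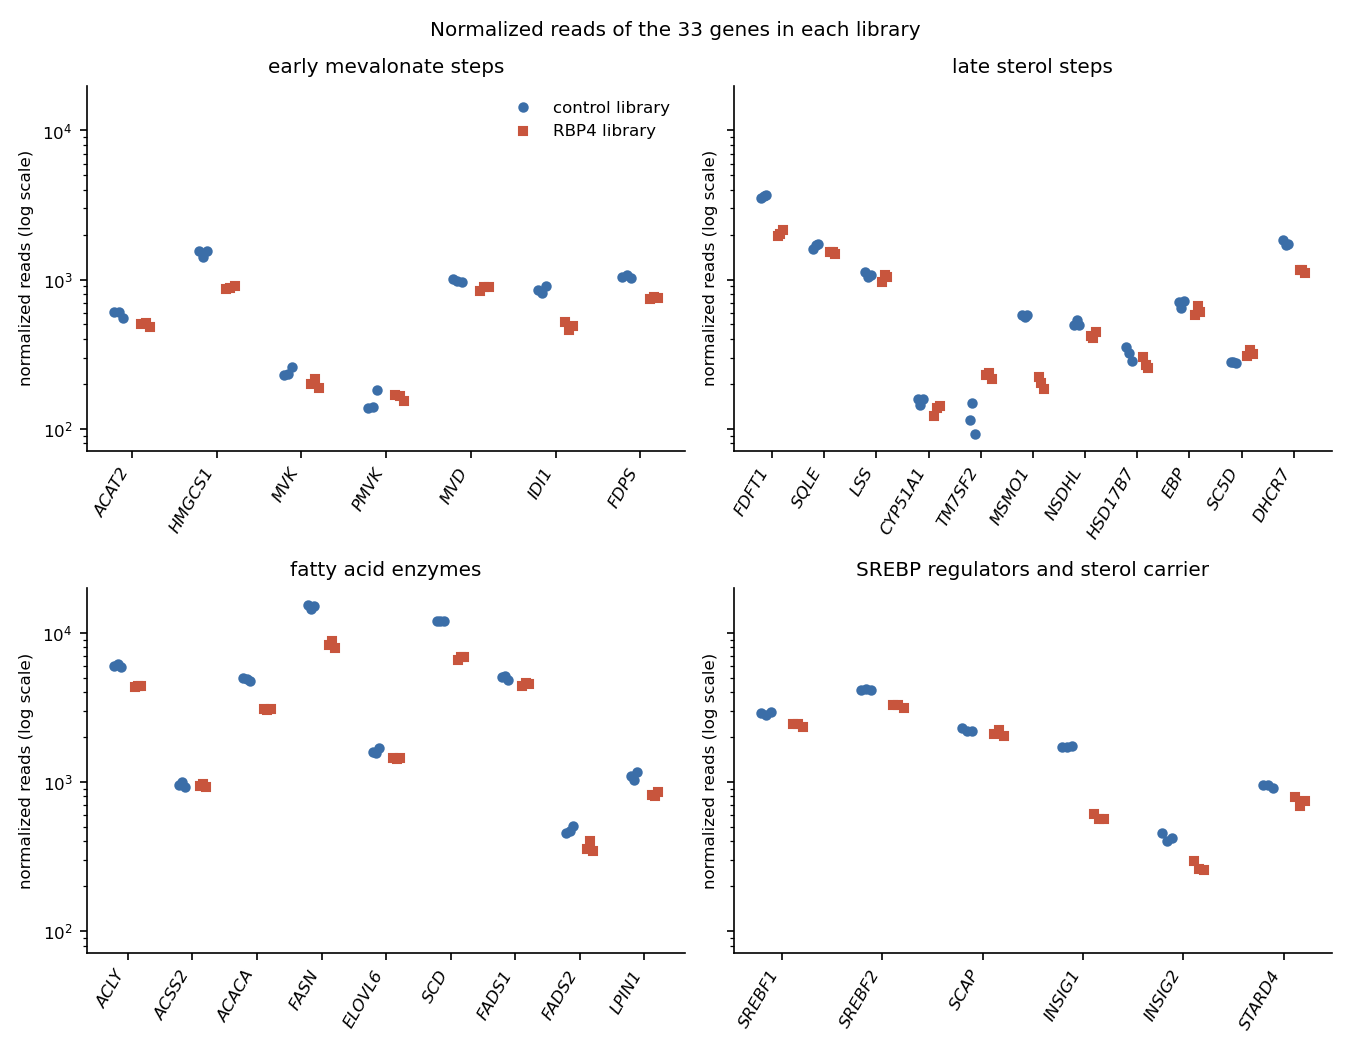
Normalized reads (log scale) of each gene in the 3 control libraries (blue circles) and the 3 RBP4 libraries (red squares), by sub-group. INSIG1 and MSMO1 show the widest gaps, and only TM7SF2 and SC5D have all RBP4 libraries above all control libraries.

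The late sterol steps run from squalene to cholesterol and moved in both directions. Of 11 enzymes, 7 fell and 2 rose, while LSS and CYP51A1 did not pass. Their log2 fold changes ran from -1.49 to 0.96 around a median of -0.20. MSMO1 (ENSG00000052802, chromosome 4, 165327623 to 165343160 on GRCh38), the methylsterol oxidase that removes C4 methyl groups, had 579, 558 and 576 normalized reads in the control and 221, 202 and 185 in the RBP4 libraries. The groups stood far apart, a 2.82-fold fall (log2 fold change -1.49, SE 0.080, limma adjusted p = 7.1e-26). NSDHL and HSD17B7 act in the same demethylation after MSMO1, NSDHL from 511 ± 24.9 to 424 ± 18.0 normalized reads (1.20-fold lower) and HSD17B7 from 319 ± 34.7 to 274 ± 24.8.

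FDFT1, squalene synthase, which commits farnesyl pyrophosphate to sterols, had 3548, 3656 and 3712 normalized reads in the control and 1974, 2024 and 2141 in the RBP4 libraries. All RBP4 values lay below all control values, a 1.78-fold fall (log2 fold change -0.83, SE 0.035, limma adjusted p = 9.0e-32). DHCR7, the reductase that makes cholesterol from 7-dehydrocholesterol, had 1857, 1716 and 1741 normalized reads in the control and 1153, 1168 and 1099 in the RBP4 libraries. It fell 1.55-fold without overlap (log2 fold change -0.63, SE 0.044, limma adjusted p = 1.6e-20). SQLE, squalene epoxidase, a control point of the pathway that follows FDFT1 directly, fell 1.11-fold, from 1684 ± 65.9 to 1515 ± 28.4 normalized reads. LSS, lanosterol synthase, stood at 1085 ± 41.6 and 1022 ± 54.7 normalized reads (limma adjusted p = 0.141) with overlapping groups.

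TM7SF2 (ENSG00000149809, chromosome 11, 65111845 to 65116384), a sterol C14 reductase, was the member that rose most. It had 114, 148 and 92.1 normalized reads in the control and 231, 235 and 215 in the RBP4 libraries. The lowest RBP4 library was above the highest control library, a 1.92-fold rise (log2 fold change 0.96, SE 0.124, limma adjusted p = 3.6e-09). SC5D, lathosterol oxidase, had 278, 279.7 and 274 normalized reads in the control and 306, 337 and 316 in the RBP4 libraries (1.15-fold, limma adjusted p = 0.0380). The SC5D call was lost with DESeq2 (adjusted p = 0.0904), with no filter (0.0746), without any 1 of the 3 control libraries (0.0600, 0.0598 and 0.0736) and without RBP4 library 2 (0.163) or RBP4 library 3 (0.0650), and its alternatives ranged from 0.00542 to 0.163.

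The calls of HSD17B7 and EBP, the sterol isomerase, also rested on small changes, and the groups overlapped for both. EBP had 690.0 ± 38.2 normalized reads in the control and 617 ± 41.9 in the RBP4 libraries (limma adjusted p = 0.0216), a call lost with DESeq2 (0.0954) and without control library 1 (0.0811), control library 3 (0.0850), RBP4 library 1 (0.141) or RBP4 library 3 (0.0681), and its alternatives ranged from 0.00576 to 0.201. HSD17B7 (limma adjusted p = 0.0373) was lost with DESeq2 (0.123), with no filter (0.0564) and without control library 1 (0.239), control library 2 (0.0859), RBP4 library 2 (0.0971) or RBP4 library 3 (0.175), and its alternatives ranged from 0.00653 to 0.239. CYP51A1, lanosterol 14-alpha-demethylase, had 158, 145 and 158 normalized reads in the control and 121, 139 and 141 in the RBP4 libraries. Its groups did not overlap, but the difference did not pass (limma adjusted p = 0.154). In GENCODE release 29, 79.4% of the exon bases of CYP51A1 also belong to a protein-coding gene on the same strand, AC000120.2, so its low value is uncertain.

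Summed over its members, the sub-group of fatty acid enzymes was the most abundant in the control, led by FASN and SCD. Apart from ACSS2, all of these enzymes fell. Of 9, 8 fell and none rose, and the median of the log2 fold changes was -0.41. FASN (ENSG00000169710, chromosome 17, 82078333 to 82098332), the synthase that builds palmitate, had 15378, 14439.7 and 15062 normalized reads in the control and 8268, 8769 and 7968 in the RBP4 libraries. Every RBP4 library was below every control library, a 1.79-fold fall (log2 fold change -0.84, SE 0.028, limma adjusted p = 4.0e-24). SCD (ENSG00000099194, chromosome 10, 100347124 to 100364834), the desaturase that makes oleate, had 11997, 12036 and 12096 normalized reads in the control and 6611, 6881 and 6850.4 in the RBP4 libraries. It fell 1.78-fold (log2 fold change -0.83, SE 0.025, limma adjusted p = 3.3e-40). ACACA, the cytosolic acetyl-CoA carboxylase, had 4947, 4896 and 4746 normalized reads in the control and 3083, 3044 and 3097 in the RBP4 libraries. Its fall was 1.58-fold (log2 fold change -0.66, SE 0.031, limma adjusted p = 3.0e-29).

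ACLY, which makes acetyl-CoA from citrate, fell 1.37-fold, from 6025 ± 137 to 4396 ± 67.4 normalized reads. ACSS2, which makes it from acetate, stood at 964 ± 37.9 and 945 ± 17.9 normalized reads (limma adjusted p = 0.660) with overlapping groups. LPIN1, a phosphatidate phosphatase, fell 1.33-fold and FADS2, the delta-6 desaturase, 1.31-fold. ELOVL6, the elongase of palmitate, fell 1.12-fold and FADS1, the delta-5 desaturase, 1.11-fold, the smallest changes among the 8 enzymes that fell, although the groups did not overlap for either. FADS1 and FADS2 share 490 exon bases on opposite strands, so a few reads of FADS1 (5031 normalized reads in the control) could be counted to FADS2 (478).

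Among the regulators, 5 of 6 fell, SCAP being the exception, and the log2 fold changes had a median of -0.35. INSIG1 (ENSG00000186480, chromosome 7, 155297776 to 155310235), which retains SCAP and is itself an SREBP target, had 1719, 1711 and 1744 normalized reads in the control and 606, 567 and 568 in the RBP4 libraries. Control libraries were tightly grouped and all RBP4 libraries lay far below them, a 2.97-fold fall (log2 fold change -1.57, SE 0.049, limma adjusted p = 2.3e-39). INSIG2, its relative, which is not driven by SREBPs in the same way, had 452, 399 and 423 normalized reads in the control and 295, 262 and 257 in the RBP4 libraries. It fell 1.57-fold, also without overlap (log2 fold change -0.65, SE 0.081, limma adjusted p = 3.0e-10). Within each library, the ratio of INSIG1 to INSIG2 normalized reads was 3.80, 4.28 and 4.12 in the control and 2.06, 2.17 and 2.22 in the RBP4 libraries. This ratio does not depend on how libraries are scaled, and its groups did not overlap (two-sided exact permutation p = 0.1, the smallest that 3 against 3 allows).

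Both genes that encode SREBPs were lower. SREBF2 had 4131, 4187 and 4138 normalized reads in the control and 3286, 3301 and 3123 in the RBP4 libraries, a 1.28-fold fall (log2 fold change -0.36, SE 0.032, limma adjusted p = 9.2e-16). SREBF1 had 2898, 2824 and 2929 normalized reads in the control and 2448, 2436 and 2334 in the RBP4 libraries, a 1.20-fold fall (log2 fold change -0.26, SE 0.035, limma adjusted p = 1.8e-09). Neither pair of groups overlapped. The SREBF1 to SREBF2 ratio within a library was 0.701, 0.675 and 0.708 in the control and 0.745, 0.738 and 0.747 in the RBP4 libraries (two-sided exact permutation p = 0.1, the smallest possible). Gene-level values do not separate the transcripts of SREBF1, and they do not show how much of either protein was cleaved.

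SCAP had 2318, 2211 and 2194 normalized reads in the control and 2115, 2244 and 2034 in the RBP4 libraries. Its groups overlapped (1.05-fold lower, limma adjusted p = 0.10), and without RBP4 library 2 the difference passed (log2 fold change -0.11, adjusted p = 0.0242; range over its alternatives 0.0242 to 0.923). STARD4, a carrier that moves sterol between membranes, had 949, 951 and 910.2 normalized reads in the control and 788, 689 and 744 in the RBP4 libraries. It fell 1.27-fold without overlap (log2 fold change -0.34, SE 0.054, limma adjusted p = 2.3e-07).

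Levels of different genes were compared per length, as CPM per kilobase of the gene length listed in the table, which counts the exons of all transcripts and so understates genes with long rare exons. In the control libraries SCD stood highest at 138 ± 0.325 CPM per kilobase (mean ± SD, n = 3), followed by FASN at 98.3 ± 3.20 and ACLY at 71.1 ± 1.69. FDFT1 (43.0 ± 0.915) was the highest sterol enzyme. TM7SF2 was the lowest of all 33 at 2.13 ± 0.509, after MVK at 2.29 ± 0.157, and these neighbours did not differ beyond their spread. In the RBP4 libraries SCD stood at 81.6 ± 1.62 and FASN at 57.4 ± 2.81, still above ACLY at 54.4 ± 0.724, although the gap between FASN and ACLY was close to the SD of FASN. INSIG1 moved from 29.1 ± 0.261, between FADS1 (30.3 ± 0.988) and DHCR7 (26.2 ± 1.15), to 10.3 ± 0.410, next to ACSS2 (11.3 ± 0.219).

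Summed over its members, each sub-group was lower in every RBP4 library than in any control library. The early mevalonate enzymes summed to 334, 323 and 334 CPM in the control and 247, 250.1 and 249 CPM in the RBP4 libraries, a mean that was 24.7% lower (-24.7%). The late sterol enzymes summed to 668, 662 and 667 CPM and to 505, 519 and 510.0 CPM (-23.2%). For the fatty acid enzymes the sums were 2929, 2879 and 2885 CPM and 1956, 2021 and 1962 CPM (-31.7%), and for the regulators and the carrier 769, 756 and 758 CPM and 617, 613 and 583 CPM (-20.6%). These sums are dominated by the genes with most reads, FASN and SCD above all, and are given as a description with no test. CPM values are relative to all reads of a library and show smaller falls than normalized reads.

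**Figure D3:**
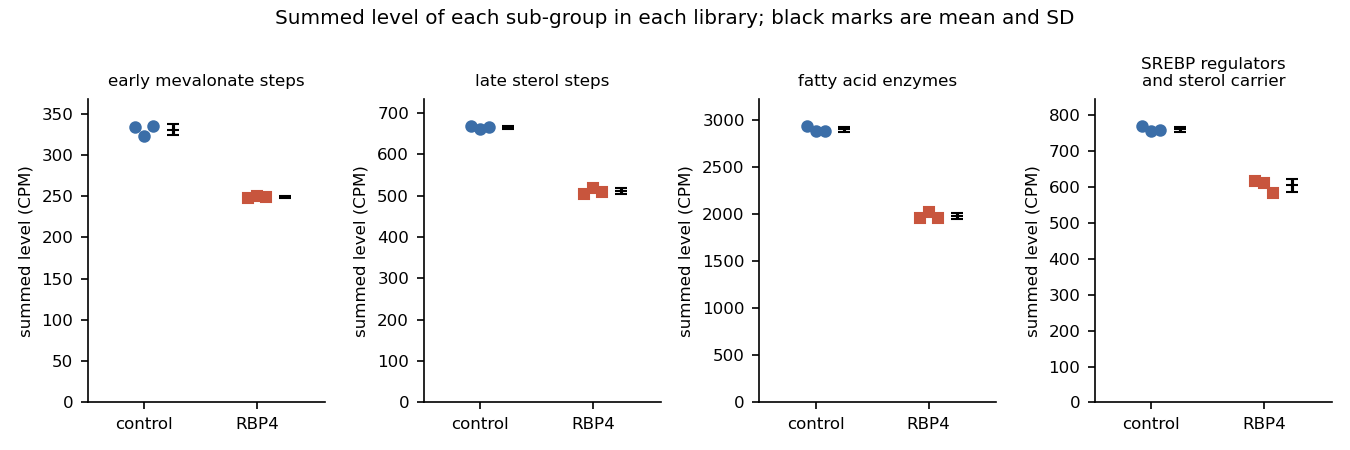
Summed level (CPM, axes from 0) of each sub-group in each library, with mean and SD in black. The RBP4 libraries lie below the control libraries in all 4 sub-groups, from 2879 to 2929 against 1956 to 2021 CPM for the fatty acid enzymes.

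Other genes of sterol and lipid metabolism, were counted in 6 lists of named genes, to be read against the 26.1% of all genes tested that fell and the 24.5% that rose. Among 11 genes of SREBP processing and sterol-regulated degradation, 3 fell (27.3%, close to the share of all genes) and 1 rose, and 7 did not pass (median on the log2 scale -0.069). Those that fell were TMEM97, a sterol-responsive membrane protein (from 1077 ± 27.8 to 889 ± 34.4 normalized reads), RNF145 and ERLIN1, which act in sterol-regulated degradation, by 1.19-fold and 1.17-fold. C12orf49, which supports SREBP cleavage, rose 1.23-fold. The isoprenoid branch turns isoprene units into products other than sterols. Of its 12 listed genes, 4 rose (33.3%), 3 fell (25.0%) and 5 did not pass (median 0.036), shares near those of all genes. SRD5A3, a polyprenol reductase, rose 1.61-fold, DOLK, dolichol kinase, 1.52-fold and DHDDS, a subunit of a prenyltransferase, 1.35-fold. TRIT1, which puts an isoprenoid group on transfer RNA, fell 1.26-fold.

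Of 16 tested genes of sterol uptake, transport and esterification, 10 rose (62.5%, against 24.5% of all genes tested) and 3 fell (18.8%, against 26.1%), with a median of 0.21 on the log2 scale, and 3 of the 19 listed were too low to be tested. VLDLR, a lipoprotein receptor, rose from 16.9 ± 2.12 to 75.4 ± 3.70 normalized reads (4.45-fold), LRP1, another receptor of that family, 1.86-fold and NPC1, which exports cholesterol from lysosomes, 1.26-fold. SCARB1, the receptor for high-density lipoprotein, fell 1.54-fold, from 2462 ± 85.8 to 1599.6 ± 66.6 normalized reads. LIPA, which is among the 10 that rose, was tested only because its RBP4 libraries passed the filter. Of 10 tested liver X receptor genes, 2 rose, 2 fell and 6 did not pass (median 0.0089), which is 20% in each direction. NR1H3, which encodes a form of the receptor, rose 1.61-fold. NR1H2, which encodes the other form, stood at 672 ± 56.0 normalized reads in the control and 701 ± 62.7 in the RBP4 libraries (limma adjusted p = 0.452). ABCA1, the cholesterol exporter, rose from 13.4 ± 3.36 to 35.7 ± 8.77 normalized reads, although the control libraries of ABCA1 alone would not have passed the filter. The apolipoprotein genes APOC1 and APOE fell 1.38-fold and 1.21-fold.

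Of 32 tested genes of fatty acid elongation, activation and lipid assembly, 11 rose (34.4%, against 24.5% of all genes tested) and 6 fell (18.8%, against 26.1%), with a median of 0.043 on the log2 scale. SLC25A1, the mitochondrial citrate carrier that feeds ACLY, fell 1.36-fold, from 5889 ± 220 to 4343 ± 71.3 normalized reads, and ACSL3, an acyl-CoA synthetase, 1.29-fold. ACACB, the carboxylase whose product restrains fatty acid oxidation, rose 1.72-fold and ACSL1 rose 1.43-fold. Of 19 tested genes of fatty acid oxidation, 6 rose (31.6%), 3 fell (15.8%) and 10 did not pass (median 0.036). With so few genes in a list, none of these shares is a result about its list, those of the sterol uptake list included. The nuclear receptor genes PPARD and PPARA rose 2.09-fold and 1.49-fold, CPT1A, the carnitine transferase of mitochondrial entry, rose 1.13-fold and ECHS1, an enoyl-CoA hydratase, fell 1.19-fold. Whether any list differed from the 33 genes was not tested.

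**Figure D4:**
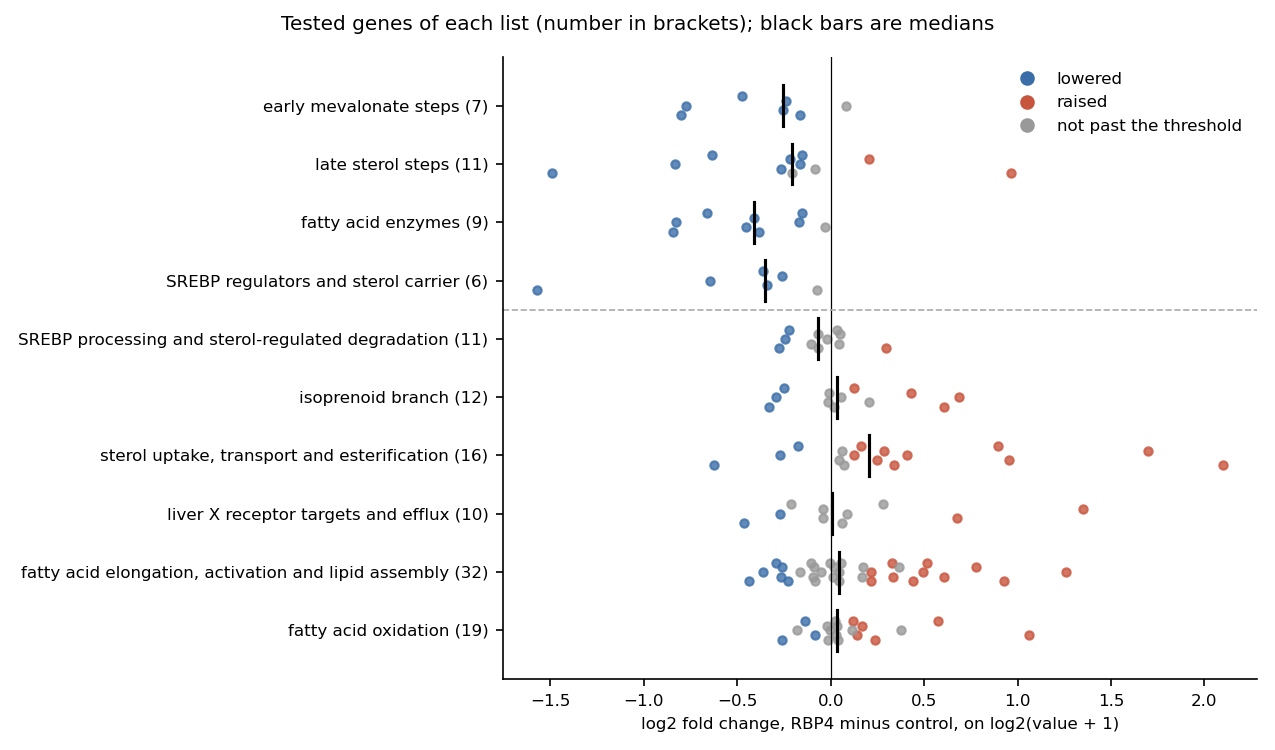
Log2 fold change (RBP4 minus control) of each tested gene, by list, with black bars at the medians and the 4 sub-groups of the 33 genes above the dashed line. The 4 sub-group medians lie between -0.41 and -0.20 and those of the 6 other lists between -0.069 and 0.21.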

How the data were processed

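The authors deposited 1 table that holds, per the file headers, a normalized signal per library for each gene, with group means and the log2 fold change, p-value and adjusted p-value of the authors. Each value was a whole multiple of 1 step per library, the pattern of counts scaled by size factors (100% whole within 0.01 reads), and recovered reads gave the depth and served alternative tests only. Poly-T selection and an unstranded NEBNext Ultra kit are named in the labels' protocols. For aligner, counter and build, nothing was given in the sources used here. All 28847 genes had the start and end of GENCODE release 29 (GRCh38). Because the table holds no counts, limma-trend (limma 3.58.1, R 4.3.3; robust, two-sided) was run on log2(value + 1) with an intercept and the group, over genes at 10 or more in 3 or more libraries, with Benjamini-Hochberg adjustment over all of them. Folds are ratios of group means of normalized reads. A fold of at least 1.5 was counted from the fitted log2 fold change, which understates low genes. Alternatives were edgeR 4.0.16 and DESeq2 1.42.0 on recovered reads, other pseudocounts, filters, scaling and threshold, a replicate block, and leaving out each library. The fit was tested on simulated data. The 33 genes and the lists were chosen with earlier results of these data known. Values in every library are given for genes past the threshold with a change of at least 1.5-fold and for the 6 regulators and carriers, with some others. Up to 4 genes with the smallest p-values are named per other list. Overlaps of exons came from GENCODE and promoters from RefSeq (GRCh38.p14). Of the columns with per-sample values, 0 were unused.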

Additional observations from a re-analysis of the deposited data

How the results depend on the processing

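Under 14 alternatives of the test, 21 of the 26 lowered genes, TM7SF2 among the 2 raised ones and 3 of the 5 that did not pass kept their direction and side of the threshold. The count lowered was 26 with edgeR, with a replicate block, with either pseudocount and with a stricter filter, 25 with no filter, 23 with DESeq2, 23 at a threshold of 0.01 and 21 with scaling to total reads. The count raised was 1 with no filter, 1 with DESeq2, 1 at a threshold of 0.01, and 1 to 2 when leaving out each library. The median log2 fold change of the 33 genes was -0.20 with scaling to total reads and between -0.30 and -0.28 when leaving out each library. ACSS2 changed sign, to 0.039 with scaling to total reads and to 0.0017 without control library 2 (-0.054 to 0.0017 when leaving out each library), and passed the threshold in none of these; the cause was not tested. Replicate numbers did not pair the libraries: deviations of same-numbered libraries correlated at -0.017 to 0.0037, and the replicate block called 7829 genes against 7934 without it. Among changes of 1.11-fold to 1.12-fold, SQLE and MVD lost their call with scaling to total reads, while FADS1 and ELOVL6 kept theirs in all 14 alternatives.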
